A study of Mus musculus with 8 samples.

Results

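The genes described here are 8 mouse transcription factors of the epidermis: Trp63 and Bnc1, the grainyhead-like genes Grhl1, Grhl2 and Grhl3, the ovo-like genes Ovol1 and Ovol2, and Prdm1. Probes were chosen by gene name on the scanned arrays, synonyms included, whatever their values. Probes matched 7 of the 8 genes, and Grhl3 is not analysed here. These 7 genes had 14 of the 41174 probes, namely 3 for Trp63, 3 for Grhl2, 2 each for Grhl1, Ovol1 and Ovol2, and 1 each for Bnc1 and Prdm1. All 14 were bright enough to be tested.

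The study measured RNA of dorsal skin on 1-colour Agilent arrays in 8 male SKH-1 mice, a hairless but immune-competent strain, aged 19 weeks by the labels. In all 8 mice the back had first been exposed to ultraviolet B for 10 weeks. The 4 enalapril mice then had 1% enalapril maleate, an inhibitor of angiotensin-converting enzyme, in 30% ethanol put on the back 5 times a week for 2 weeks. The 4 vehicle mice had 30% ethanol alone on the same schedule, so both groups share the irradiation and the ethanol, and there was no unirradiated group among these arrays. The labels say that RNA samples were picked for array work by the quality of their ribosomal bands, and they call the samples biological replicates. Whole skin was used, so dermis, fat and muscle lie in every sample.

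Trp63 encodes p63, a relative of p53 without which stratified epithelia do not form, and which the proliferating basal layer of the epidermis keeps on. Grainyhead factors switch on genes of cell junctions and of the barrier, and OVOL1 and OVOL2 are zinc-finger repressors that restrain progenitor growth and mesenchymal genes as keratinocytes leave the basal layer. PRDM1 (BLIMP1) is a repressor found in the granular layer, in the sebaceous gland and, outside epithelia, in plasma cells. BNC1, basonuclin 1, is a zinc-finger protein of basal keratinocytes with proliferative capacity.

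Promoters, taken as 250 bases before to 50 after each gene's start in RefSeq (GRCm38.p6), were at hand for 5 of the 8 genes, 6 promoters in all among 32851. The entries cover Bnc1, Grhl1 with 2 starts, Grhl3, Ovol2 and Prdm1. Those of Bnc1 and Prdm1 are printed because Bnc1 had the largest difference of the 7 genes on their brightest probes and the Prdm1 window holds an E-box match. Cldn4, a grainyhead target that rose in enalapril skin, is shown with its sites. Each runs 5′ to 3′ on the minus strand, at chr7:81992250-81992549 for Bnc1, chr10:44458699-44458998 for Prdm1 and chr5:134946885-134947184 for Cldn4. Capitals mark the E-box CACCTG, read on either strand, which Snail and Zeb repressors bind.
Bnc1: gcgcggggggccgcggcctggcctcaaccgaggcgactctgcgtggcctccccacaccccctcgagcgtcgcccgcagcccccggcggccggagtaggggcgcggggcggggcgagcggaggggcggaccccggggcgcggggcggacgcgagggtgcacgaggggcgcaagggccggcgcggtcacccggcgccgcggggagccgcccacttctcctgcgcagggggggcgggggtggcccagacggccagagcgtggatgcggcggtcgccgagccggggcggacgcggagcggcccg
Prdm1: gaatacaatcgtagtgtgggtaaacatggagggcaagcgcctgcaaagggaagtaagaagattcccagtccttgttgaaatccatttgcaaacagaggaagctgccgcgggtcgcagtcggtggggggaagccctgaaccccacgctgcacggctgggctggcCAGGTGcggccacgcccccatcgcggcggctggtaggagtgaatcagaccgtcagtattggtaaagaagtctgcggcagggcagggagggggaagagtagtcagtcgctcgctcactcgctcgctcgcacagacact
Cldn4: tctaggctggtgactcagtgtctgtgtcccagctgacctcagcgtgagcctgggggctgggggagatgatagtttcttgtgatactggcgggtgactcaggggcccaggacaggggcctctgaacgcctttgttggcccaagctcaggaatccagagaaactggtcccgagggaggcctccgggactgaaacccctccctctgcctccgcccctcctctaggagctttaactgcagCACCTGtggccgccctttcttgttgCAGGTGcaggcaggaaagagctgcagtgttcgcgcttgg
The Bnc1 window was 83.3% G or C, higher than 99.7% of all promoters, whose median was 52.7%. The E-box lay in 2 of the 6 promoters of these genes, Grhl3 and Prdm1, and in 20.2% of all promoters. In Prdm1 the match began 87 bases before the start, and in Cldn4 the 2 matches stood on either side of it. None of the 6 held a grainyhead site (AACCNGTT, in 2.09% of all promoters), an Ovol site (CCGTTA, 2.76%), a Prdm1 site (GTGAAAG, 4.24%) or the p53-family half-site (8.36%). Both strands were searched, and each motif was counted on its own whether or not matches overlapped.

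Levels below are log2 intensities relative to the array's 75th percentile, and a difference is enalapril minus vehicle on that log2 scale, with limma's standard error over 4 arrays per group. That percentile lay between 821.5 and 1070 intensity units on enalapril arrays and between 884 and 1540 on vehicle arrays, and 67.12 to 72.71% of spots were well above background. The enalapril arrays all lay on slide 2 and the vehicle arrays all on slide 1, so a slide effect and a drug effect cannot be told apart here. Median local background was 48 to 52 on enalapril arrays and 57 to 66 on vehicle arrays. Enalapril 4 stood apart: its mean correlation was 0.9805 with the other enalapril arrays and 0.9833 with the vehicle arrays, whereas each of the other 7 arrays correlated best with its own group. Over all 19097 genes tested the median difference was -0.083 and 40.2% of differences were positive. In this and every later share of all genes, each tested probe without a gene name stands as a gene of its own.

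With 1 probe per gene, the brightest, 0 of the 7 genes passed limma at an adjusted p under 0.05, against 14.2% of all genes tested (4.33% higher and 9.85% lower). At an unadjusted p under 0.05 there were 2 of 7, Trp63 and Bnc1, against 32.1% of all genes. The difference was positive for 5 genes and negative for 2, with a median of 0.15. Tested probe by probe, 1 of the 14 probes was called, a dim Trp63 probe that was higher in enalapril skin, against 10.4% of the 28580 probes tested (3.82% higher).

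**Figure D1:**
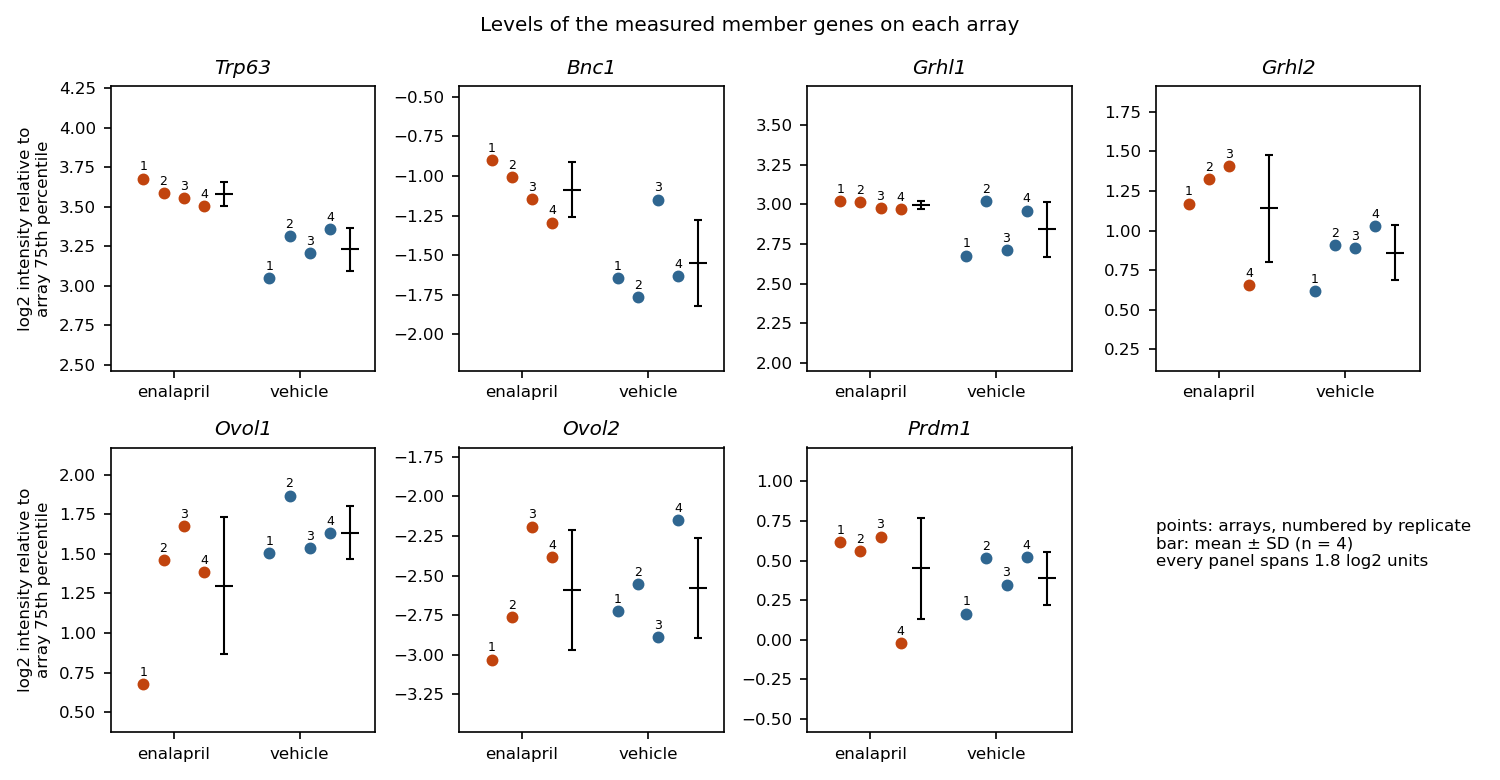
Levels of the 7 measured genes on each array, on the brightest probe of each. Points are single arrays numbered by replicate, bars are means ± SD (n = 4), the vertical axis is log2 intensity relative to the array's 75th percentile, and every panel spans the same range. Only the Trp63 panel shows enalapril arrays (3.50 to 3.68) wholly above vehicle arrays (3.05 to 3.36).

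Trp63 was read brightest by probe A_51_P216550, designed on transcript NM_011641. Its level was 3.68, 3.59, 3.55 and 3.50 in enalapril skin, against 3.05, 3.31, 3.21 and 3.36 in vehicle skin. All 4 enalapril arrays stood above all 4 vehicle arrays, a separation found in 22% of all genes, 6.6% in this direction and 15.4% in the other. The means were 3.58 ± 0.07 in enalapril skin and 3.23 ± 0.14 in vehicle skin (SD, n = 4 each), a 1.27-fold difference. The difference of 0.35 ± 0.10 (95% interval 0.12 to 0.58) had an adjusted p of 0.05043, just short of the threshold, and 14.3% of genes had a smaller p. Without enalapril 4 it was 0.38 with an adjusted p of 0.03435, in a fit that called 26.3% of all genes, 9.34% as higher and 16.9% as lower. In whole skin, more cells of a type and more RNA per cell cannot be told apart.

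The separation depended on scaling. Before division by the 75th percentile the intensities of this probe overlapped, at 9640 to 13700 in enalapril skin and 7370 to 15300 in vehicle skin. The deposited log2 values, which are not centred between arrays, gave a difference of -0.015, and there the median of all genes was -0.45. Set against the median of all genes, Trp63 was 0.43 higher under the main scaling. Centring on E1A control probes and the deposited values give the same 0.43 by construction, since these scales differ by 1 constant per array. Trp63 was 0.56 higher after quantile normalization and 0.38 higher under a repaired normexp background correction. In that repair 6 spots on enalapril 3, whose background far exceeded their signal, took that array's median background.

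The other Trp63 probes had positive differences too. On A_52_P17264, also designed on NM_011641, the level was -2.84, -2.43, -1.98 and -2.99 in enalapril skin, against -3.32, -3.20, -2.60 and -3.01 in vehicle skin. These groups overlapped, with vehicle 3 above 2 enalapril arrays, and the difference of 0.47 ± 0.24 had an adjusted p of 0.2339. On A_52_P338796, designed on the embryonic head clone AK048623, the level was -3.58, -4.16, -3.94 and -4.47 in enalapril skin, against -4.70, -5.11, -4.65 and -4.75 in vehicle skin. The groups did not overlap, as for 7.12% of all probes in this direction (20.2% in either). The difference of 0.77 ± 0.20, 1.7-fold, passed limma over all probes with an adjusted p of 0.04369. Which p63 isoforms each probe reads is not given in the sources used here.

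That called probe was dim, at 39.6 to 89.6 intensity units in enalapril skin and 32.9 to 61.2 in vehicle skin, although every array had it well above background. The call was lost in 13 of 18 alternatives, with an adjusted p between 0.00952 and 0.4911, while the difference stayed positive in all 18, between 0.40 and 1.13. The highest adjusted p and the largest difference came under plain normexp, where 0% of all probes were called. Leaving out any array except enalapril 4 ended the call. Without enalapril 4 the difference was 0.91, with an adjusted p of 0.0108, in a fit that called 24.7% of all probes.

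Agreement between Trp63 probes was tested on the per-array difference of each pair, by an exact permutation test over the 70 ways to split 8 arrays. A_51_P216550 minus A_52_P17264 was -0.12 ± 0.28 (two-sided exact p = 0.6857). A_51_P216550 minus A_52_P338796 was -0.42 ± 0.22 (exact p = 0.1429), and A_52_P17264 minus A_52_P338796 was -0.29 ± 0.30 (exact p = 0.4286). No pair passed, and the smallest p this design allows is 0.02857, so gaps of this size were not resolved. All 3 probes had every enalapril array above the vehicle mean.

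**Figure D2:**
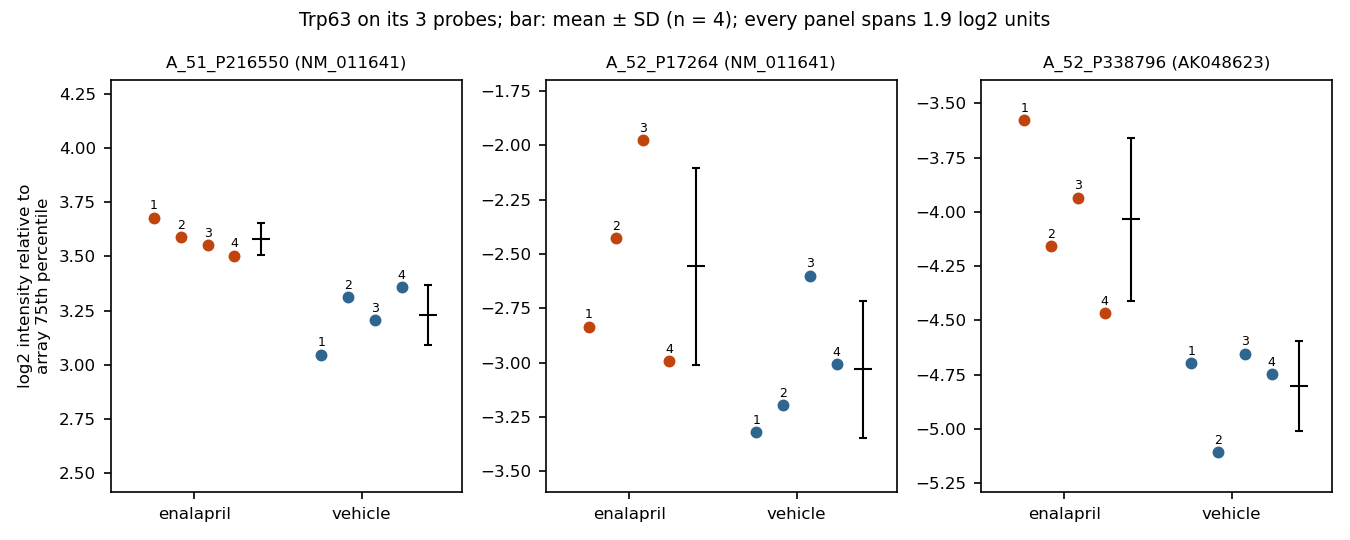
Trp63 on its 3 probes, array by array. Points are arrays numbered by replicate, bars are means ± SD (n = 4), and the vertical axis is log2 intensity relative to the array's 75th percentile. Enalapril arrays lie above all vehicle arrays on A_51_P216550 and A_52_P338796, and the groups overlap on A_52_P17264.

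Bnc1 was read by 1 probe, A_52_P676819 (NM_007562). Its level was -0.898, -1.007, -1.147 and -1.295 in enalapril skin, against -1.646, -1.765, -1.150 and -1.633 in vehicle skin. Vehicle 3 reached the enalapril range, and 3 of 4 enalapril arrays lay above every vehicle array. The 1.38-fold difference of 0.46 ± 0.15 (95% interval 0.11 to 0.81) had an adjusted p of 0.07844. It was called without enalapril 4 (0.53, adjusted p = 0.04336) and without vehicle 3 (0.59, adjusted p = 0.03184). Those fits called 26.3% and 10.4% of all genes.

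The grainyhead factors did not pass. Grhl1, which acts on desmosomal genes, had a level on A_52_P159276 of 3.02, 3.01, 2.98 and 2.97 in enalapril skin, against 2.68, 3.02, 2.71 and 2.96 in vehicle skin. Vehicle 2 and vehicle 4 lay close to the enalapril arrays and the other 2 vehicle arrays were lower. The difference was 0.15 ± 0.11 (95% interval -0.087 to 0.39, adjusted p = 0.3513). Its second probe, A_51_P273213, had 2.26, 2.23, 2.24 and 2.13 in enalapril skin, against 1.85, 2.09, 1.58 and 2.21 in vehicle skin. That difference was 0.28 ± 0.14 (adjusted p = 0.2284), and the 2 probes differed by -0.13 (exact permutation p = 0.2286).

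Grhl2, a regulator of epithelial junction genes, had a level on A_51_P362328 of 1.17, 1.32, 1.41 and 0.66 in enalapril skin, against 0.62, 0.91, 0.89 and 1.03 in vehicle skin. Enalapril 4 was the exception, since the other 3 enalapril arrays lay above every vehicle array. The difference was 0.28 ± 0.17 (95% interval -0.12 to 0.68, adjusted p = 0.3039). Without enalapril 4 it was 0.44 with an adjusted p of 0.03381, in a fit that called 26.3% of all genes. The other Grhl2 probes went the other way without passing. A_51_P408821 had a difference of -0.11 ± 0.25 (adjusted p = 0.8005), and enalapril 4 alone lay far below the rest at -4.82. A_52_P373982 had -1.02 ± 0.56 (adjusted p = 0.2621), but it was well above background on only 2 of 4 arrays in each group. With the uncentred deposited values limma called this probe lower (-1.385, adjusted p = 0.01959), in a fit that called 5.42% of all probes. The brightest probe's change exceeded that of A_51_P408821 by 0.39 (exact permutation p = 0.08571, adjusted over the 9 probe pairs 0.2571). The gap to A_52_P373982 is not read further, because 4 of 8 arrays were not well above background.

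Ovol1 gave opposite signs on its 2 probes. On A_52_P441954 the level was 0.68, 1.46, 1.67 and 1.39 in enalapril skin, against 1.50, 1.87, 1.53 and 1.63 in vehicle skin, so that 3 of 4 enalapril arrays lay below every vehicle array. The difference was -0.33 ± 0.21 (95% interval -0.81 to 0.14, adjusted p = 0.2991). On A_51_P225827 the level was -1.08, -0.38, -0.22 and -0.17 in enalapril skin, against -0.63, -0.65, -0.57 and -0.56 in vehicle skin, a difference of 0.14 ± 0.19 (adjusted p = 0.6737). Here 3 of 4 enalapril arrays lay above every vehicle array, and enalapril 1 was the lowest array on both probes. The gap between the 2 probes, -0.47 ± 0.12, had the smallest possible exact permutation p of 0.02857, which adjusted over the 9 probe pairs of all genes was 0.2571.

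Ovol2 was read on its transcript variant A by A_51_P322095. Its level was -3.03, -2.76, -2.19 and -2.38 in enalapril skin, against -2.72, -2.56, -2.89 and -2.15 in vehicle skin. The groups overlapped throughout, and the difference of -0.01 ± 0.22 had a 95% interval of -0.51 to 0.49 (adjusted p = 0.9775). The variant B probe, A_51_P322090, had -0.36 ± 0.33 (adjusted p = 0.4969), with enalapril 1 far below the others at -5.36. Within families, Grhl1 and Grhl2 differed in their change by -0.13 ± 0.18 (exact permutation p = 0.5143) and Ovol1 and Ovol2 by -0.32 ± 0.19 (exact permutation p = 0.1143). These 2 comparisons were chosen after the data were seen.

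Prdm1 had a level on A_51_P338746 of 0.62, 0.56, 0.65 and -0.023 in enalapril skin, against 0.17, 0.52, 0.35 and 0.52 in vehicle skin. Enalapril 4 was the lowest of all 8 arrays and the other 3 enalapril arrays were the highest. The difference was 0.06 ± 0.17 (95% interval -0.32 to 0.45, adjusted p = 0.8266). PRDM1 also marks plasma cells and sebaceous cells. The mean level of 6 B and plasma cell markers ranged from -1.28 to -0.92 in enalapril skin and from -0.996 to -0.54 in vehicle skin. Of these 6 only Cd79b was called, as lower (-0.65, adjusted p = 0.02475), against 9.85% of all genes. Jchain, Mzb1 and Sdc1 had -0.40, -0.49 and 0.20, with adjusted p from 0.2932 to 0.6036. The mean level of 7 sebaceous markers ranged from 3.30 to 3.86 in enalapril skin and from 3.13 to 3.38 in vehicle skin. Of these 7, Fa2h and Far2 were called higher, against 4.33% of all genes, and the other sebaceous markers were not called. Their part in the Prdm1 values was not tested.

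**Figure D3:**
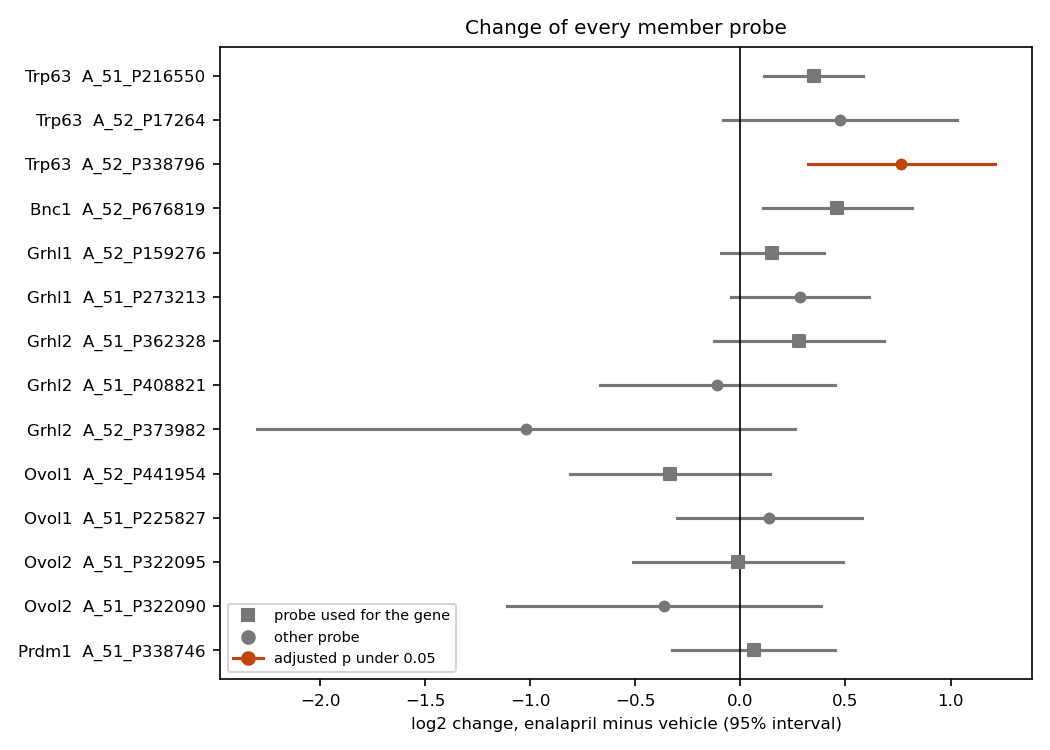
Difference of every probe, enalapril minus vehicle, on the log2 scale with its 95% interval from limma. Squares are the brightest probe of each gene, circles the others, and orange marks an adjusted p under 0.05, which 1 Trp63 probe (0.77) reached.

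Across arrays the genes did not move as 1 block. Of the 7 genes, 5, 5, 7 and 4 lay above their own mean over the 8 arrays on enalapril 1 to 4, against 1, 4, 2 and 5 on vehicle 1 to 4. Likeness was measured as the root mean square difference of mean-centred log2 levels over the 8 arrays, and it includes the group difference. The patterns most like Trp63 were those of Mospd2 (0.0523), Celf1 (0.0585) and Dnajc13 (0.0659). Its nearest relative among the 8 factors was Grhl1, which came 151st of all genes at 0.116. The genes most like Bnc1 were Rai1, Mybbp1a and Sowahb, at 0.0611 to 0.0956, and those most like Grhl2 were Pdia4, Kansl1 and Iqgap2, at 0.0708 to 0.0736. Prdm1 came 65th for Grhl2 at 0.13, and both had low values on enalapril 4. For Grhl1 they were Hook1, Gja1 and Pdgfrb, and for Prdm1 Paqr8, Map3k20 and Peg12. Ovol1 had neighbours at larger distances in Peli3, Olfr791 and Prc1 (0.107 to 0.135), as did Ovol2 in Ano8 and Rhbdf2 (0.151 and 0.152). This distance also depends on a gene's own spread over the 8 arrays. That spread was 0.329 for Ovol1 and 0.301 for Ovol2, against 0.132 (Grhl1) to 0.304 (Bnc1) for the others.

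Known targets and partners were followed in 6 lists of 90 genes, all tested. Of these, 3 were called higher and 1 lower, against 4.33% and 9.85% of all genes, and 12 of 90 had an unadjusted p under 0.05, against 32.1% of all genes. Their median difference was 0.086 and 61 of 90 were positive, against -0.083 and 40.2% for all genes. Several genes, such as Runx1 and Zfp750, sit in 2 lists.

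Of 23 p63 targets 1 was called higher and 0 lower (4.33% and 9.85% of all genes), with a median of 0.082 and 18 positive. It was Cldn1, the tight-junction claudin whose loss in mice is lethal through water loss across the skin. Its level was 0.90, 0.84, 0.62 and 0.81 in enalapril skin, against 0.005, 0.32, 0.30 and 0.48 in vehicle skin. All enalapril arrays stood above all vehicle arrays, as for 6.6% of all genes (22% in either direction). The Cldn1 difference was 0.52 ± 0.12 (adjusted p = 0.03013). A second Cldn1 probe had -0.20 ± 0.11 (adjusted p = 0.2517), and the call was lost in 12 of 19 alternatives. Runx1, a regulator of hair follicle stem cells, had 0.78 ± 0.24 (adjusted p = 0.06102) and -0.29 on its other probe. The integrin subunit Itga3 had 0.32 ± 0.13 (adjusted p = 0.1429) on its brightest probe. Of its other probes 1 was called higher (0.55 ± 0.14, adjusted p = 0.04449 over all probes) and 1 had -0.15 ± 0.19 (adjusted p = 0.6515). Igfbp3, a binder of insulin-like growth factors, had 0.46 ± 0.20 (adjusted p = 0.1451). The basal keratins Krt5 (0.07, adjusted p = 0.8085) and Krt14 (0.09, adjusted p = 0.7081) did not pass.

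Of 16 grainyhead targets 2 were called higher and 0 lower (4.33% and 9.85% of all genes), with a median of 0.10 and 10 positive. Both encode junction proteins, E-cadherin (Cdh1) and claudin 4 (Cldn4). Cdh1 had a level of 0.78, 0.67, 0.72 and 0.81 in enalapril skin, against -0.14, 0.014, -0.04 and 0.30 in vehicle skin, a difference of 0.71 ± 0.11 (adjusted p = 0.01195). Cldn4 had 0.17, 0.34, 0.40 and 0.30 in enalapril skin, against -0.07, -0.35, -0.36 and -0.09 in vehicle skin, a difference of 0.52 ± 0.11 (adjusted p = 0.02259). For both, every enalapril array lay above every vehicle array, as for 6.6% of all genes (22% in either direction). The Cdh1 call was lost in 3 of 19 alternatives, with an adjusted p up to 0.418, and that of Cldn4 in 7. Esrp1, an epithelial splicing factor, had 0.42 ± 0.16 (adjusted p = 0.111) and the protease inhibitor Spint1 -0.19 ± 0.09 (adjusted p = 0.1908), with 0.18 ± 0.13 on its other probe (adjusted p = 0.3773). Transglutaminase 1 (Tgm1), which crosslinks the cornified envelope, had an adjusted p of 0.7614. A grainyhead site lay in 1 of the 11 target promoters at hand, that of Rab25, and the E-box in 5, Cldn4 among them.

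Among 10 genes listed as of the mesenchymal state or as repressed by OVOL factors, 0 were called by limma. Of them 1 had an unadjusted p under 0.05 (32.1% of all genes did), and the median was 0.069. Vimentin (Vim) had 0.34 ± 0.14 (adjusted p = 0.1262) and the repressors Snai1, Snai2 and Zeb1 had 0.43, -0.35 and -0.16, with adjusted p from 0.1874 to 0.3303. Of 24 other epidermal transcription factors 0 were called higher and 1 lower (4.33% and 9.85% of all genes), with a median of 0.18 and 18 positive. That 1 was Pou2f3 (Skn-1a), a keratinocyte differentiation factor, at -6.11, -6.27, -5.24 and -5.90 in enalapril skin, against -4.87, -4.87, -5.29 and -4.76 in vehicle skin. Its difference was -0.93 ± 0.23 (adjusted p = 0.03157), but the probe was well above background on only 2 of 4 enalapril arrays, against 4 of 4 vehicle arrays. The Pou2f3 call was lost in 9 of 18 alternatives with the sign kept, and the sign turned in 2 more, both normexp background corrections, at 0.72 and 0.028.

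Of 17 suprabasal and cornified layer genes 0 were called by limma, and 2 had an unadjusted p under 0.05, against 32.1% of all genes. Their median was -0.068, and 7 of 17 were positive, against 40.2% of all genes. Krtdap, a secreted protein of the suprabasal layers, had -0.38 ± 0.12 (adjusted p = 0.0612). Its enalapril arrays lay wholly below the vehicle arrays, as for 15.4% of all genes (22% in either direction). Calml3, a calmodulin-like protein of keratinocytes, had -0.35 ± 0.13 (adjusted p = 0.1049). The desmosomal cadherin Dsc1 had 0.24 ± 0.11 (adjusted p = 0.168) and -0.12 on its other probe. Involucrin (Ivl), an early envelope protein, had 0.85 ± 0.38 (adjusted p = 0.1598). Of the 7 genes of the p53 family and its regulators 0 were called and 0 had an unadjusted p under 0.05, against 32.1% of all genes. All 7 were positive, against 40.2% of all genes, though not in every processing alternative. Their median was 0.15, with Mdm2, the ubiquitin ligase of p53, at 0.20 and Trp73 at 0.15. Mdm2 had -0.21 on a second probe.

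**Figure D4:**
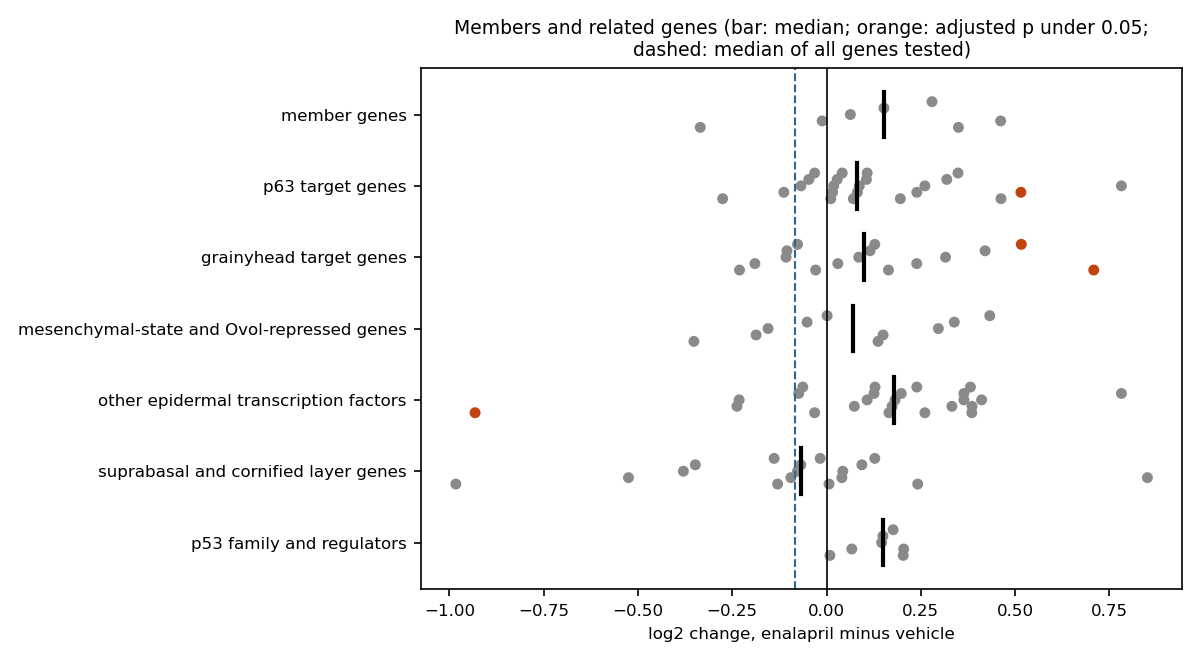
Differences of the 7 factors and of the genes in 6 related lists, enalapril minus vehicle, in log2 units. Each point is a gene, the black bar is the list's median, orange marks an adjusted p under 0.05 and the dashed line is the median of all genes tested (-0.083). Medians run from -0.068 for suprabasal genes to 0.18 for other epidermal transcription factors.

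Markers of the epidermis were present and measured in both groups. For the counts below, limma called 4.33% of all genes higher and 9.85% lower, and 32.1% had an unadjusted p under 0.05. The mean level of 6 basal keratinocyte markers ranged from 5.42 to 5.58 in enalapril skin and from 5.44 to 5.64 in vehicle skin, with 0 called by limma and 0 at an unadjusted p under 0.05. That of 6 suprabasal markers ranged from 6.88 to 7.14 in enalapril skin and from 6.95 to 7.61 in vehicle skin, with 0 called and 1 at an unadjusted p under 0.05. Adipocyte markers ranged from 2.64 to 3.09 in enalapril skin and from 3.22 to 3.40 in vehicle skin, with 4 of 6 called lower. Skeletal muscle markers ranged from 4.63 to 4.70 in enalapril skin and from 4.86 to 5.71 in vehicle skin, with 3 of 6 called lower and Myh4 at 0.22 (adjusted p = 0.709). Fibroblast markers ranged from 5.74 to 5.93 in enalapril skin and from 5.59 to 6.03 in vehicle skin. Hair follicle markers ranged from 0.86 to 1.54 in enalapril skin and from 0.93 to 1.84 in vehicle skin. T and NK cell markers ranged from -1.89 to -1.17 in enalapril skin and from -1.47 to -1.23 in vehicle skin. Macrophage and dendritic cell markers ranged from 2.95 to 3.28 in enalapril skin and from 2.98 to 3.26 in vehicle skin. In these 4 sets limma called 0, and at an unadjusted p under 0.05 there were 0 of 7 fibroblast markers and 1 in each of the others. The part of these shifts in the Trp63 and Bnc1 differences was not tested.

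**Figure D5:**
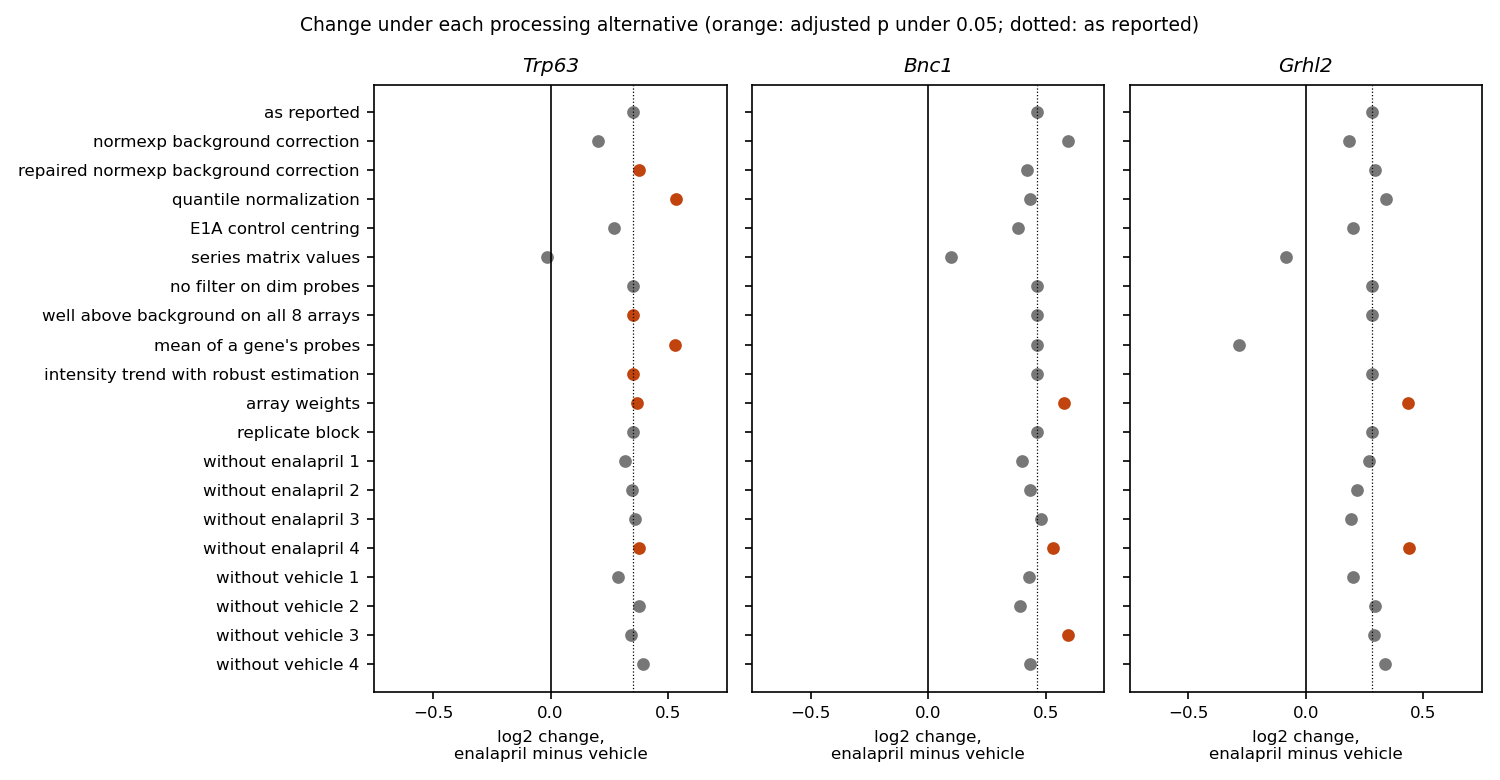
Difference of Trp63, Bnc1 and Grhl2, enalapril minus vehicle in log2 units, as reported and under 19 processing alternatives. Orange marks an adjusted p under 0.05 and the dotted line the reported value. Trp63 was called under 7 alternatives, Bnc1 under 3 and Grhl2 under 2, in fits that called 9.76 to 31.1% of all genes. Trp63 and Grhl2 lay below 0 with the uncentred deposited values, Grhl2 also with the mean of its probes.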

How the data were processed

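RNA of 8 dorsal skin samples was hybridised to 8 1-colour arrays. The deposited scanner files give each spot's linear intensity, made by Agilent Feature Extraction 9.1.3.1 per the file headers (9.1 per the submitters' processing notes), background-subtracted within each array and not scaled between arrays. Other columns, the quality flags deposited with them, served as filters. Log2 values in the deposited series matrix matched the scanner files' processed signal after log2 alone, with no centring of arrays.

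Outlier spots and controls were removed, spots of a probe were averaged, and each level was expressed as the log2 signal less that array's 75th percentile. Probe names were updated through RefSeq gene names (by accession for 22951 of 41174 probes, 6444 unnamed). The array files name no build, so probes have no coordinates here. Features well above background on at least 4 of 8 arrays were tested with limma 3.58.1 in R 4.3.3 (lmFit and eBayes, two-sided, Benjamini-Hochberg over all features, reading with version 1.17.8 of data.table), either the brightest probe per gene or every probe. The test was checked on simulated data with independent noise for each probe and array, which held no slide effect and no odd array. Probe pairs had an exact permutation test, adjusted over the 9 pairs. The text names all members, up to 4 genes per list with the smallest p, any other called gene, and the 3 nearest patterns per member. The basal keratins Krt5 and Krt14, Tgm1, Fa2h, Far2, Myh4, Cd79b, Jchain, Mzb1 and Sdc1 were named besides, after their values were seen. Some genes that this rule picks are not reported here. Members and lists were chosen with earlier results of these data known. The number of arrays limits the precision. Replicate numbers did not pair the samples.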

Additional observations from a re-analysis of the deposited data

Results flagged for a closer look

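Of 28 group-and-probe sets of 4 arrays, 1 held a sample far from the others, and chance flags about 1 such set in 20. It was Prdm1 on probe A_51_P338746, where enalapril 4 had a level of -0.023, against 0.56 for the nearest and 0.651 for the highest of the other enalapril arrays. Its gap was 0.864 of the group's range, above Dixon's critical value for 4 samples.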

How the results depend on the processing

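As reported, 0 of 7 genes, 1 of 14 probes and 4 of 90 related genes were called, against 14.2% of all genes and 10.4% of all probes. The count of genes was 1, Trp63 each time, under the repaired normexp correction, quantile normalization, the filter on all 8 arrays, the mean of a gene's probes and the intensity trend with robust estimation. Those fits called 9.76 to 15.8% of all genes. With array weights, which gave enalapril 4 the lowest weight of 0.279, the count of genes was 3, with 5 probes and 15 related genes called. That fit called 31.1% of all genes and 27.9% of all probes. Probes called were 2 under quantile normalization and the intensity trend, fits that called 7.33% and 12% of all probes. They were 0 under both normexp corrections, E1A centring and no filter, where 1 to 3 had an unadjusted p under 0.05. Those fits called 0 to 6.96% of all probes. With the deposited values the 1 probe called was Grhl2 probe A_52_P373982, as lower, and the Trp63 probe was not called. Related genes called were 0 under normexp and E1A centring, and 2 with the deposited values and with no filter. The last 2 fits called 10.4% and 5.39% of all genes. Leaving out 1 array at a time gave 0 to 3 genes, 0 to 4 probes and 1 to 12 related genes, the highest each time without enalapril 4, where 5013 of all genes were called, against 2707 with all arrays and 853 to 1993 without any other array. Normexp called 0 of all genes in limma (2642 at an unadjusted p under 0.05), and 1988 once the background of 6 spots on enalapril 3 was repaired. E1A centring called 373, no filter 1495 and array weights 5937. Higher calls were 30.5% of all calls as reported, 42% after quantile normalization and 5.16% in the deposited values.

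With replicate number as a block, 0 genes, 0 probes, 1 related gene (Cdh1) and 610 of all genes were called; the numbers did not pair the samples, since deviations of same-numbered arrays correlated at -0.159, 0.0479, 0.146 and -0.0204. A slide block could not be fitted, because each slide held 1 group.

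Signs turned as follows. The deposited values are uncentred, with a median of -0.45 over all genes. Plain normexp had a median of 0.14 over all genes, and repairing the background of 6 spots on enalapril 3 brought it to -0.0087. Other causes were not tested. With the deposited values Trp63 was -0.015, Grhl1 -0.21 and -0.083 on its probes, Grhl2 -0.086, Prdm1 -0.30, Ovol1 probe A_51_P225827 -0.23, Itga3 -0.046, Vim -0.026, Dsc1 -0.12, Mdm2 -0.16, Itch -0.19, Trp73 -0.22 and Ppp1r13l -0.22. With the mean of probes Grhl2 was -0.28 and Mdm2 -0.0029. Under normexp Ovol2 was 0.42 and 0.38 on its probes, Grhl2 probes A_51_P408821 and A_52_P373982 0.64 and 0.67, and Pou2f3 0.72. Under repaired normexp Ovol2 was 0.068, A_51_P408821 0.11 and Pou2f3 0.028. Prdm1 was -0.018 under E1A centring, and A_51_P408821 was 0.018 with array weights. Leaving out 1 array at a time gave -0.15 to 0.13 for Ovol2, -0.011 to 0.22 for Prdm1 and -0.24 to 0.16 for A_51_P408821. After quantile normalization Trp63 probe A_51_P216550 exceeded A_52_P17264 by 0.094. Pou2f3 and Grhl2 probe A_52_P373982 have no value under the filter on all 8 arrays.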
